A study of Mus musculus with 4 samples.

Results

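Matrix metalloproteinases and the tissue inhibitors that block them were followed across the immune cells of mouse liver under a control diet and under a diet that brings about nonalcoholic steatohepatitis (NASH). The 10 genes Mmp12, Mmp13, Mmp8, Mmp27, Mmp2, Mmp9, Mmp14, Mmp19, Timp1 and Timp2 were taken by symbol from the gene table of 27998 genes, which holds 27 Mmp and Timp genes. Non-parenchymal cells of C57BL/6J livers were sorted to keep CD45+ cells (leukocytes) and to discard those carrying CD146, which endothelial cells carry. There were 2 droplet single-cell RNA libraries (10x Genomics) from mice labelled control and 2 from mice labelled nash-amln, the Amylin liver NASH model diet. All livers were digested with Liberase, an enzyme mix that itself contains collagenase, in the presence of flavopiridol, which blocks transcription. Ages and the length of the diets are not given in the labels. The labels do not say whether each library came from its own mouse, so p-values measure the spread between these libraries, which may be technical.

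Matrix metalloproteinases (MMPs) are zinc enzymes that cut collagens, elastin, fibronectin and other proteins between cells. Most are secreted as inactive precursors, a few are anchored in the cell membrane, and the Timp proteins bind and block the active enzymes. In the liver they are known for both the laying down and the removal of scar, and macrophages, neutrophils and stellate cells are their textbook sources. RNA gives neither the amount nor the activity of an enzyme.

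Of 6927 deposited barcodes, 6158 were kept as cells, between 1307 and 1859 per library. The libraries held between 5513953 and 15619962 unique molecular identifiers (UMIs, each standing for 1 captured RNA molecule), and the median kept cell held 3381 and 3050 UMIs in control and 7584 and 7417 in NASH libraries. Cells were clustered without the Mmp and Timp genes and named from markers, and macrophage-like clusters, marked by C1qa, C1qb and C1qc, held 968, 871, 712 and 1008 cells in control 1, control 2, NASH 1 and NASH 2. The 21 macrophage markers were all detected there in each library. The control libraries stood apart from each other: 842 of the 968 macrophage-like cells of control 1 lay in cluster 4, led by Fkbp5, and 718 of the 871 of control 2 lay in cluster 3, led by Marco. NASH macrophage-like cells lay in clusters 2, 16, 21 and 22, so different clusters hold most of the class in each diet. Pairs of libraries shared 2 to 8 barcodes. Levels are given as CPM, the UMIs of a gene scaled to a common total of all UMIs of the class in a library, and the order in which libraries are listed is the same throughout.

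The genes Mmp13, Mmp12, Mmp8 and Mmp27 lie in 1 cluster of protease genes on chromosome 9 (mm10), all on the plus strand, at chr9:7272514-7283331, chr9:7344381-7369499, chr9:7558456-7568485 and chr9:7571396-7581885. The other genes of the cluster, Mmp1b, Mmp3, Mmp1a, Mmp10, Mmp20 and Mmp7, had between 0 and 36 UMIs in all kept cells. Mmp2 is on chromosome 8, Mmp9 on 2, Mmp14 on 14, Mmp19 on 10, Timp2 on 11 and Timp1 on X. Timp1 lies inside Syn1, Mmp19 overlaps Tmem198b and the end of Mmp12 overlaps Mmp1b, each on the opposite strand, and whether reads were counted by strand is not given in the sources used here. Mmp1b had 0 UMIs. RefSeq (GRCm38.p6) gave an upstream sequence for 7 of the 10 genes. The 250 bases before the start are shown for the 4 genes of the chromosome 9 cluster, since all of them were called higher in NASH macrophage-like cells. Capitals mark matches to the AP-1 motif TGANTCA or the PEA3 motif AGGAAG on either strand, which are described in promoters of many MMP genes, and to the TATA box TATAAA on the plus strand.
Mmp13, chr9:7272264-7272513, plus strand: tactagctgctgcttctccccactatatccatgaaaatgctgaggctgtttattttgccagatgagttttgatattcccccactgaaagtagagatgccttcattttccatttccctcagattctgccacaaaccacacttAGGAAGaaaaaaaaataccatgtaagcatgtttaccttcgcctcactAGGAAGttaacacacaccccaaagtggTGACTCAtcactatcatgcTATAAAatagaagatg
Mmp12, chr9:7344147-7344396, plus strand: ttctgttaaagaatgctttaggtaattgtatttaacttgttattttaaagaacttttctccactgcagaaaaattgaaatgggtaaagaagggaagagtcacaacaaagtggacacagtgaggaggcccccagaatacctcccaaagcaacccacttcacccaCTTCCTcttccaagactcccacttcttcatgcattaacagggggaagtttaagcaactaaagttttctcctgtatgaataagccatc
Mmp8, chr9:7558179-7558428, plus strand: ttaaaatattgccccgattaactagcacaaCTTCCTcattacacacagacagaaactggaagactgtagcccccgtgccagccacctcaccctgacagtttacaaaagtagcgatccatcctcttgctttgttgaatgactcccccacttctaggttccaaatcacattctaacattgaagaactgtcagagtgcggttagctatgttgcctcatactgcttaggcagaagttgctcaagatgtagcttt
Mmp27, chr9:7571146-7571395, plus strand: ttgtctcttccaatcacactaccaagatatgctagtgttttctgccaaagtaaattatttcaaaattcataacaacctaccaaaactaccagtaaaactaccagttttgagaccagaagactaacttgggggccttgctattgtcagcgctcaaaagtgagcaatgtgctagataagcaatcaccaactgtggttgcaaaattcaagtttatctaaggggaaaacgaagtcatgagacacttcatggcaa

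The Mmp13 window held 1 AP-1 match, from -35 to -29 with the base before the start counted as -1, as well as PEA3 matches from -109 and from -62 and a TATA box from -16. The Mmp12 window held 1 PEA3 match on the opposite strand from -87 to -82, and the Mmp8 window 1 from -220 to -215. The Mmp27 window held none of the 3 motifs. A second Mmp12 start in RefSeq, at chr9:7347124-7347373 upstream, held 1 AP-1 match from -44 to -38. Among 32851 upstream windows of the same length, 6.75% held the AP-1 motif, 29.5% the PEA3 motif and 7.59% the TATA box. A match is a description of letters, not of a factor bound there.

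In macrophage-like cells 5 of the 10 genes were called higher in NASH and none lower (edgeR quasi-likelihood test on UMIs summed per library, adjusted p under 0.05 over 10224 genes). They were Mmp12, Mmp13, Mmp2, Mmp27 and Mmp8. Mmp14, Mmp9, Mmp19 and Timp2 were tested and not called, and Timp1 had too few UMIs to enter the test. The background is high: 23.0% of all genes tested were called higher and 20.8% lower, 43.8% in all. The 10 genes were chosen with earlier results of these data known. Mmp2 and Mmp8 had at most 6 UMIs in a control library, so they entered the test through their NASH UMIs. The number called and the median are therefore no measure of the whole family. The 9 tested members had a median log2 fold change of 1.46 against -0.02 over all genes. These folds are relative to that centre: with library totals alone the median of all genes fell by 0.39 on the log2 scale, and the calls split into 1280 higher and 3915 lower in place of 2353 and 2123. An exact permutation test of 2 libraries against 2 cannot go below p = 0.333.

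**Figure D1:**
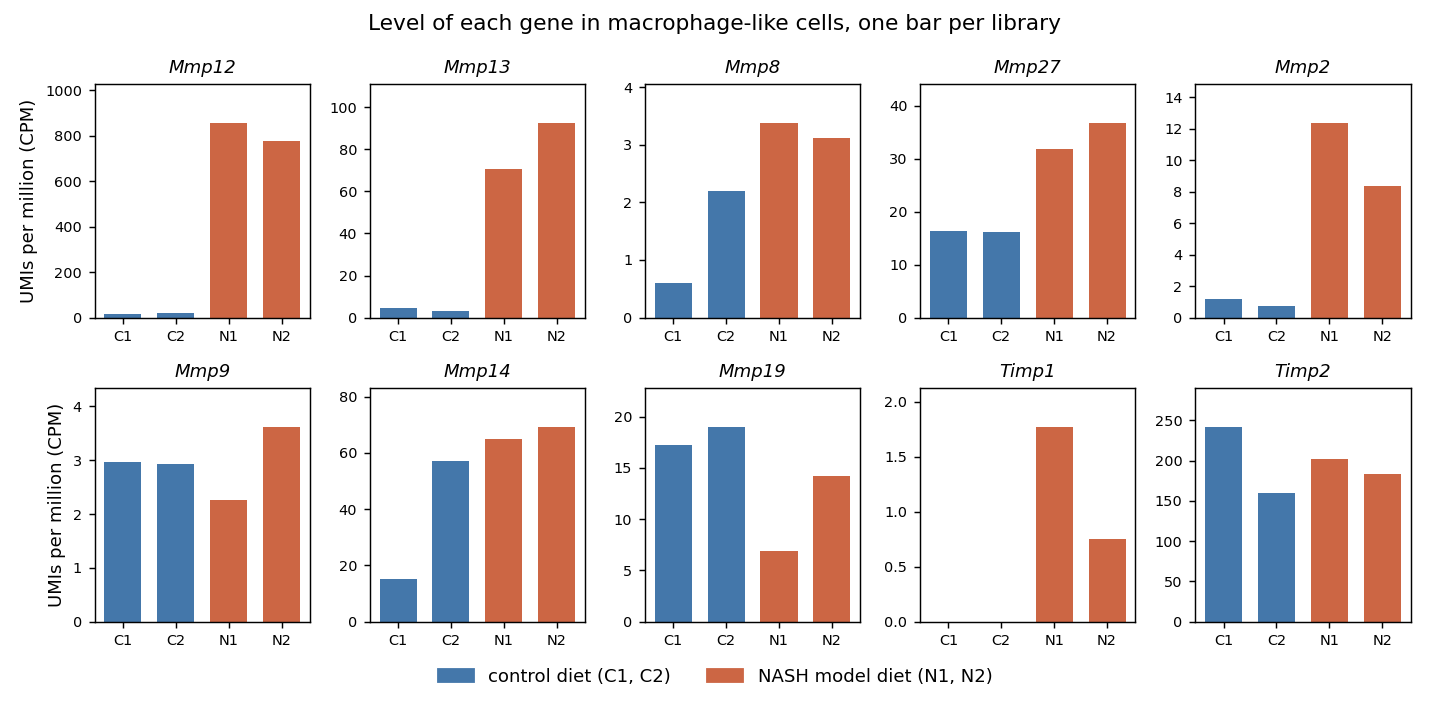
Level of each of the 10 genes in macrophage-like cells, in CPM, with 1 bar per library (C1 and C2 control, N1 and N2 NASH) and a separate linear axis from 0 for each gene. Mmp12 stood at 14.0 and 19.0 CPM in control and at 857 and 777 in NASH, Mmp14 was low in only 1 control library, and Timp2 was in the same range in both diets.

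Mmp12, the macrophage elastase, was at 14.0, 19.0, 857 and 777 CPM in macrophage-like cells. These values rest on 47, 52, 5322 and 6230 UMIs, and the diets did not overlap. The log2 fold change was 6.01 (SE 0.20, edgeR adjusted p = 1.37e-07), and it lay between 5.34 and 6.51 under 16 alternatives, all of which called it. After each cell was thinned to 1000 UMIs, 0.733% and 1.28% of control and 27.1% and 27.9% of NASH macrophage-like cells had a Mmp12 UMI. T cell-like cells, which should lack the gene, had it in 0%, 0%, 0% and 5.46% at the same depth. Without thinning the macrophage-like shares were 1.96%, 2.18%, 56.6% and 46.7%.

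Mmp13, a collagenase that cuts fibrillar collagen, was at 4.46, 3.29, 70.6 and 92.7 CPM. The diets did not overlap, and the log2 fold change was 4.74 (SE 0.24, edgeR adjusted p = 1.65e-06). Its thinned shares were 0.419%, 0.232%, 5.62% and 6.75% of cells. As with Mmp12, every alternative called it, with log2 values from 4.11 to 5.00.

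Mmp8, the collagenase stored in the granules of neutrophils, was near the limit of detection in macrophage-like cells. It had 2, 6, 21 and 25 UMIs, or 0.594, 2.19, 3.38 and 3.12 CPM, and 3 UMIs correspond to a floor of 0.891, 1.10, 0.483 and 0.374 CPM. The libraries of the diets did not overlap, and the log2 fold change was 1.65 (SE 0.54, edgeR adjusted p = 0.0303). The call was lost with DESeq2 (adjusted p = 0.212), with library totals alone (0.0739), with the stricter cell filter (0.0616) and without control 1 (0.249), NASH 1 (0.181) or NASH 2 (0.155). The summed level of 22 neutrophil markers in the same cells was between 84.6 and 100.1 CPM in all 4 libraries, with 4 to 10 of the markers at 0. The sum of 17 monocyte markers was 3701 and 4781 CPM in control and 10880 and 10050 in NASH, and its part in the Mmp8 result was not tested.

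Most Mmp8 UMIs lay elsewhere. Neutrophil-like cells (5, 10, 18 and 17 cells) had Mmp8 at 948, 1003, 129 and 709 CPM and held 61.5%, 52.9%, 16.9% and 45.3% of the UMIs of the library. In monocyte-like cells Mmp8 was concentrated in cluster 18, led by Chil3, at 80.7 and 113 CPM in the NASH libraries, against 11.2 and 15.0 CPM in cluster 15, led by Ly6i and holding Ccr2 among its leading genes. Over all monocyte-like cells the mean Mmp8 level was 132.9 CPM in control, on 6 and 9 UMIs, and 37.6 CPM in NASH. These cells were 0.612% and 0.915% of kept cells in control and 12.7% and 9.25% in NASH. The neutrophil-like and monocyte-like classes had under 10 cells in at least 1 control library and were not tested between diets.

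Mmp27, a stromelysin-like member of the family that is little studied, was at 16.3, 16.1, 31.9 and 36.8 CPM in macrophage-like cells. The NASH libraries lay above both control libraries, and the log2 fold change was 1.46 (SE 0.18, edgeR adjusted p = 1.82e-04). Under the 16 alternatives it lay between 1.08 and 1.55 and was always called. Macrophage-like cells held 87.3%, 97.8%, 79.8% and 86.8% of the Mmp27 UMIs of the libraries.

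Of the gelatinases, Mmp2 and Mmp9, which cut denatured collagen and basement membrane, only Mmp2 was called in macrophage-like cells. Mmp2 had 4, 2, 77 and 67 UMIs, or 1.19, 0.731, 12.4 and 8.36 CPM. The diets did not overlap, and the log2 fold change was 3.72 (SE 0.47, edgeR adjusted p = 2.03e-04). No single cell held more than 4 Mmp2 UMIs. The stellate cell or fibroblast-like cells (12 and 8 cells in NASH) had Mmp2 at 243.5 and 125 CPM, yet macrophage-like cells, being far more numerous, held 66.4% and 67.7% of the Mmp2 UMIs of the NASH libraries. The sum of 22 stellate cell and fibroblast markers in macrophage-like cells was 118, 147, 112 and 96.7 CPM and was not higher in NASH. Among those markers Col1a2 was at 0, 0.366, 2.26 and 0.624 CPM, and Col3a1 at 0, 0.366, 2.09 and 0.873 CPM. Their part in the Mmp2 result was not tested.

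Mmp9 was at 2.97, 2.92, 2.26 and 3.62 CPM in macrophage-like cells, and the ranges of the diets overlapped (log2 fold change 0.39, SE 0.42, edgeR adjusted p = 0.485). In neutrophil-like cells it was at 474, 836, 110 and 404 CPM. Those cells were 0.383%, 0.704%, 1.15% and 0.914% of kept cells and held 33.3%, 41.7%, 30.9% and 50.6% of the Mmp9 UMIs.

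Mmp14, the membrane-anchored enzyme that activates the Mmp2 precursor, differed between the control libraries. It was at 15.2, 57.0, 64.9 and 69.2 CPM in macrophage-like cells, on 51, 156, 403 and 555 UMIs. Both NASH libraries lay above both control libraries, but control 2 lay near them and control 1 well below. The log2 fold change of 1.30 (SE 0.69) was not called (edgeR adjusted p = 0.241). Without control 1 it was 0.61 and called (0.00915), and without control 2 it was 2.51 and called (1.45e-07), each against a lone control library that is assumed to vary as the others do.

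The control libraries were also compared within clusters. In cluster 3, Mmp14 was at 74.7 and 63.6 CPM in control 1 and control 2, and in cluster 4 at 8.84 and 12.9 CPM. The values rest on 23 and 145 UMIs in cluster 3 and on 26 and 3 UMIs in cluster 4, so that of control 2 in cluster 4 is at the floor of 3 UMIs. Each cluster comes mostly from 1 library, and the part of the clusters in the Mmp14 gap was not tested. Timp2 was at 276 and 157 CPM in cluster 3 and at 240 and 159 CPM in cluster 4, higher in control 1 in both.

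Mmp19, a secreted enzyme that acts on basement membrane proteins, was at 17.2, 19.0, 6.93 and 14.2 CPM in macrophage-like cells. Both NASH libraries lay below the control libraries, but the difference was not called (log2 fold change -0.37, SE 0.31, edgeR adjusted p = 0.362). In NASH 2, 1 cell held 49 of the 114 UMIs, and without it the level was 8.12 CPM. In NASH 1, 1 cell held 11 of 43 UMIs, and without it the level was 5.16 CPM. The direction rests on the NASH libraries: without NASH 1 the log2 fold change was 0.02, and without NASH 2 it was -0.98 and called (adjusted p = 0.0463). After thinning, 1.88% and 1.86% of control and 0.421% and 0.893% of NASH cells had a Mmp19 UMI.

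Of the inhibitors, Timp2, which blocks MMPs and also takes part with Mmp14 in activating Mmp2, was at 242, 159, 202 and 183 CPM in macrophage-like cells. Both NASH libraries lay between the control libraries. The log2 fold change was 0.31 (SE 0.19, edgeR adjusted p = 0.219), and with library totals alone it was -0.06. Without control 1 it was 0.65 and called (adjusted p = 0.00475), and without control 2 it was 0.04. The thinned shares were 20.3%, 15.1%, 18.3% and 15.97% of cells.

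Timp1, an inhibitor that is widely used as a marker of liver scarring, had 0 UMIs in control macrophage-like cells and 11 and 6 in NASH. Set against a floor of 3 UMIs over both control libraries, the pooled NASH level was at least 2.43-fold higher. With no filter on low genes Timp1 entered the test and was called (edgeR adjusted p = 0.00498). Over all kept cells Timp1 had 1, 5, 71 and 26 UMIs. In NASH 1, 45.1% of them lay in 12 stellate cell or fibroblast-like cells, at 354 CPM on 32 UMIs. Of these, 16 were in 1 cell, without which the level was 194.6 CPM. In NASH 2 the 8 such cells had 41.8 CPM, on 3 UMIs that were all in 1 cell, which is at the floor. The 3 and 5 such cells of the control libraries had 65.2 and 88.7 CPM, on 1 and 4 UMIs. Dendritic cell-like cells with markers of conventional dendritic cells type 2 had Timp1 at 21.5 and 9.85 CPM in NASH, on 15 and 4 UMIs. Cluster 12, which stayed unnamed, had it at 31.05 and 24.7 CPM in NASH, on 5 and 4 UMIs. The other NASH macrophage-like and monocyte-like levels were between 0.749 and 4.48 CPM.

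Summed over all kept cells, the same 5 genes were called higher, against 18.2% of 12124 genes called higher and 16.6% lower (34.8% in all): Mmp12 (log2 5.80), Mmp13 (4.51), Mmp2 (3.71), Mmp27 (1.22) and Mmp8 (0.98). Timp1 (log2 2.81, SE 0.91) and Mmp14 (1.23, SE 0.42) were not called, at edgeR adjusted p = 0.0568 and 0.0845. In such sums a change in the number of cells of a type and a change of RNA per cell cannot be told apart.

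Within NASH macrophage-like cells the genes differed in which clusters held them, and both NASH libraries gave the same order of the 4 clusters for Mmp12, Mmp13 and Mmp14 but not for Mmp27, Mmp2 and Timp2. Mmp12 was at 89.6 and 174.5 CPM in cluster 2 (led by Folr2 and Apoc1) and at 270 and 245 in cluster 16 (Cx3cr1 and H2-M2). It was at 1211 and 1819 in cluster 21 (Il1rn, Ear2 and Trem2) and at 1995 and 2352 in cluster 22 (Atp6v0d2, Gpnmb and Fabp5). Mmp13 followed the same order, from 5.10 and 30.4 CPM in cluster 2 over 40.3 and 41.1 and then 93.0 and 208 to 156 and 219 CPM in cluster 22.

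Mmp27 had another order. It was at 42.3 and 53.4 CPM in cluster 2 and 42.8 and 47.7 in cluster 21, but at 9.91 and 8.56 CPM in cluster 16 and 25.4 and 24.0 in cluster 22. Mmp14 was the reverse of this in cluster 2 and cluster 16, at 19.7 and 23.1 CPM in the first and 91.2 and 93.3 in the second. Its highest values, 104 and 179 CPM, were in cluster 22. Mmp2 was at 21.8 and 15.0 CPM in cluster 16, on 33 and 35 UMIs, and at 2.64 to 16 CPM in the other 3. Timp2 varied least in these clusters, between 135 and 273 CPM.

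**Figure D2:**
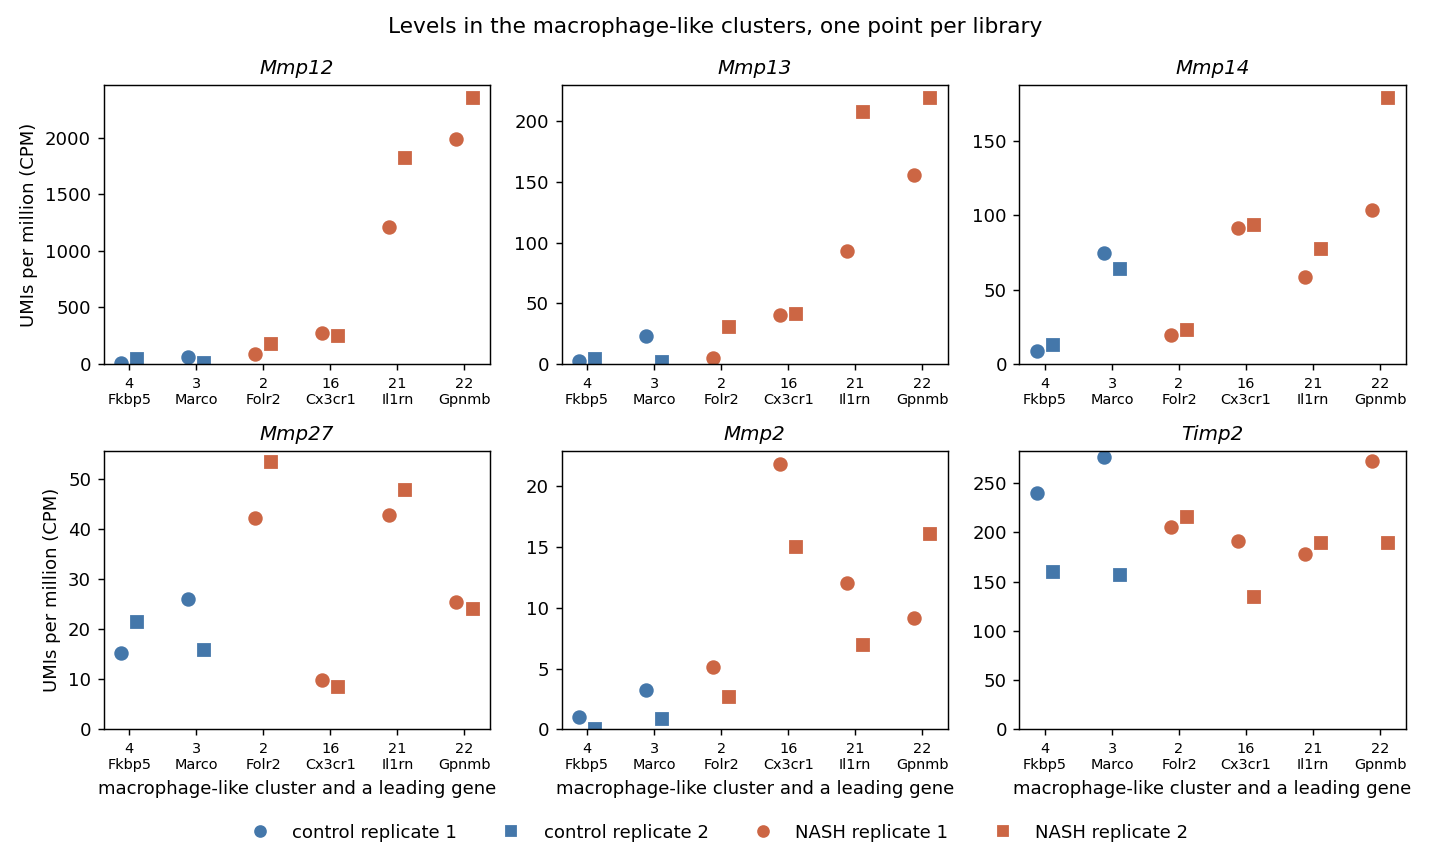
Levels of 6 genes, in CPM, in the macrophage-like clusters, with 1 point per library (circles replicate 1, squares replicate 2, blue control, orange NASH). Clusters 3 and 4 are shown for control and 2, 16, 21 and 22 for NASH. Mmp12 and Mmp13 were highest in clusters 21 and 22, Mmp27 in clusters 2 and 21, and control Mmp14 in cluster 3.

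In control libraries, cluster 21 held 1 and 2 control cells, which had 2 and 18 Mmp12 UMIs, or 20 of the 99 in control macrophage-like cells. Those 18 UMIs of control 2 were in 1 cell, without which control 2 stood at 12.5 CPM. In control 1, the cell with the most Mmp12 had 13 UMIs, and the level without it was 10.1 CPM.

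Kupffer cells, the resident macrophages of the liver, are marked by Clec4f, and the long-lived ones by Timd4. A Clec4f UMI was found in 74.3% and 77.1% of NASH macrophage-like cells. Mmp12 was at 858 and 790 CPM in those cells and at 856 and 730 CPM in cells without a Clec4f UMI, while Mmp14 was at 55.9 and 54.2 against 95.8 and 126 CPM. Mmp27 went the other way, at 35.6 and 43.3 CPM with Clec4f against 19.2 and 12.5 CPM without. A Timd4 UMI went with less Mmp12 (591 and 577 against 914 and 832 CPM), less Mmp14 (31.2 and 40.6 against 72.1 and 77.1) and more Mmp27 (51.3 and 52.8 against 27.8 and 32.4). A cell without a UMI of a marker may still express it, and no test was made between parts of the same cells.

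Mmp12 was unevenly spread over NASH macrophage-like cells. The top 10% of the cells (72 and 101) held 71.4% and 70.4% of its UMIs, 17.0% and 16.4% of cells had 10 or more, and single cells reached 277 and 148 UMIs. Mmp13 was detected in fewer cells, with 87.4% and 85.1% of its UMIs in the same number of cells. It had 438 and 743 UMIs, against 5322 and 6230 for Mmp12. This share rises where UMIs are few, so the shares of the 2 genes cannot be compared directly. For Timp2 in NASH 1 the share was 36.9%. At 1000 UMIs per cell, Mmp13 was found in 14.5% and 17.4% of the NASH cells that had Mmp12 and in 2.31% and 2.61% of those that did not. For Mmp14 the libraries went opposite ways, at 4.15% and 8.90% of cells with Mmp12 against 5.78% and 6.19% of those without.

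**Figure D3:**
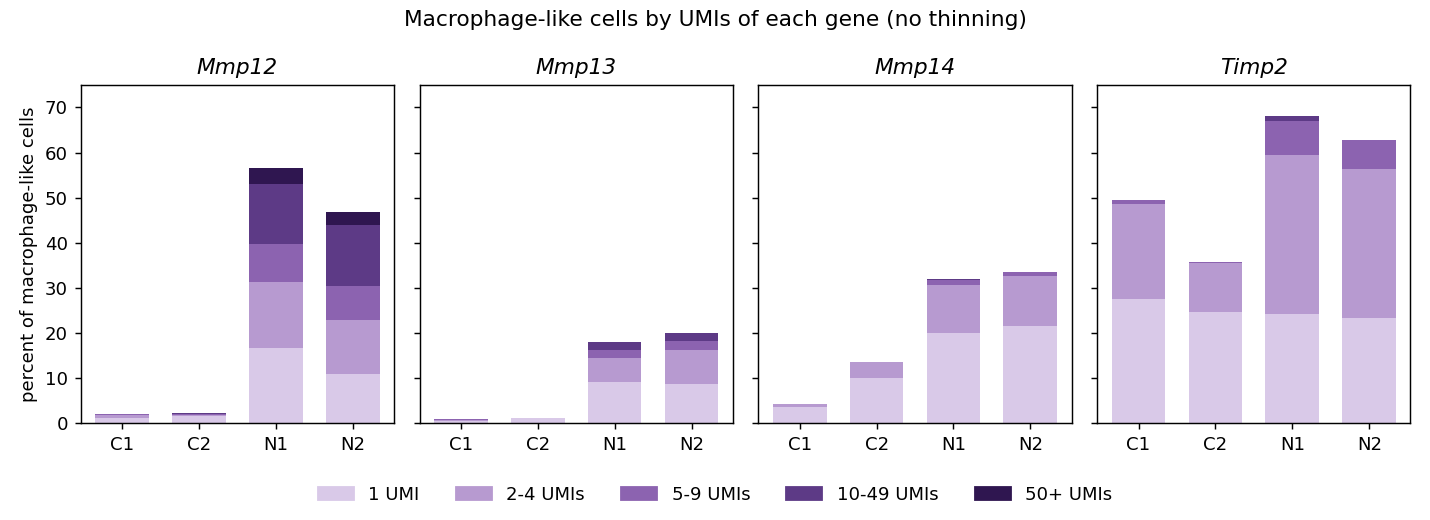
Percent of macrophage-like cells with 1, 2 to 4, 5 to 9, 10 to 49 or 50 and more UMIs of Mmp12, Mmp13, Mmp14 and Timp2, stacked, for the 2 control (C1, C2) and 2 NASH (N1, N2) libraries. The cells are not thinned, and NASH cells are deeper (median 8272 and 7540 UMIs against 3113 and 2845), which raises the bars of every gene in NASH. In NASH, 17.0% and 16.4% of cells had 10 or more Mmp12 UMIs, against at most 1.69% for the other 3 genes.

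Outside the macrophage-like class, 7 classes had at least 10 cells in every library and were tested. In the cycling C1q-high cells (53, 50, 68 and 79 cells) Mmp12 was at 12.2, 5.10, 271 and 423 CPM, and the log2 fold change of 5.52 (SE 0.43) was called (edgeR adjusted p = 8.05e-08, background 23.6% of 6285 genes called). Mmp14 and Timp2 were tested there and not called. No member was called in dendritic cell-like, plasmacytoid dendritic cell-like, endothelial-like, T cell-like or the other cycling cells, of which the last 2 had no member in the test. Few members entered the test in the rest. They were Mmp12, Mmp14 and Timp2 in dendritic cell-like, Mmp14 and Timp2 in endothelial-like and Timp2 in plasmacytoid dendritic cell-like cells. Mmp12 was thus not tested in endothelial-like or plasmacytoid dendritic cell-like cells. Over all genes tested, edgeR called 1.98% in dendritic cell-like, 2.09% in plasmacytoid dendritic cell-like, 9.01% in endothelial-like, 0.816% in T cell-like and 2.73% in the other cycling cells. In these classes 1 member, Mmp12 in dendritic cell-like cells, had an unadjusted p under 0.05.

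In B cell-like cells (41, 55, 44 and 91 cells) Mmp12 had 0, 0, 32 and 141 UMIs and was called (edgeR adjusted p = 2.21e-04, background 14.7% of 2586 genes called). Against a floor of 3 UMIs over the control libraries, its pooled NASH level of 192 CPM was at least 22.1-fold higher. Timp2 had 2, 1, 35 and 32 UMIs there and was called as well (log2 2.96, SE 0.74, edgeR adjusted p = 0.0151). Its pooled ratio was 8.56, with a 95% counting interval of 2.81 to 42.6. Macrophage markers moved with both: the sum of 21 macrophage markers in B cell-like cells was 3692 and 3492 CPM in control and 46600 and 26040 in NASH, against 85600 and 89500 in NASH macrophage-like cells, with 0 to 2 of the 21 at 0.

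Within B cell-like cells of the NASH libraries most UMIs of both genes sat in the droplets with 10 or more C1q UMIs. In NASH 1, 29 of 32 Mmp12 UMIs and 32 of 35 Timp2 UMIs were in the 14 of 44 cells with 10 or more UMIs of C1qa, C1qb and C1qc. In NASH 2, 138 of 141 and 28 of 32 were in 31 of 91 cells. These 14 and 31 cells held 149353 of 301148 and 299814 of 599001 UMIs of all genes in the class. The 4 and 13 cells with 0 C1q UMIs had 0 UMIs of Mmp12 and of Timp2, but they held only 14243 and 46258 UMIs of all genes. Endothelial-like cells gave the same picture: Mmp12 had 1, 0, 157 and 1 UMIs, and all 157 of NASH 1 were in 13 of 33 cells with 10 or more C1q UMIs.

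**Figure D4:**
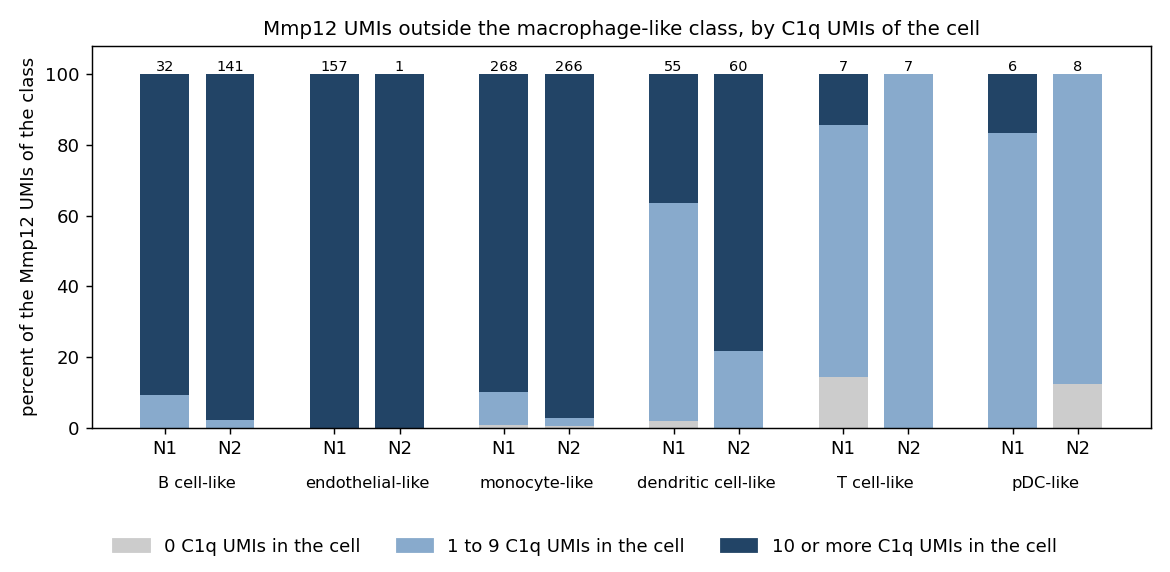
Percent of the Mmp12 UMIs of each NASH class that lay in cells with 0, 1 to 9 or 10 and more UMIs of C1qa, C1qb and C1qc, for N1 (NASH 1) and N2 (NASH 2), with the number of Mmp12 UMIs above each bar (pDC, plasmacytoid dendritic cell). In B cell-like, endothelial-like and monocyte-like cells nearly all Mmp12 UMIs were in cells with 10 or more C1q UMIs.

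Monocyte-like cells numbered 8 and 13 in control and 200 and 172 in NASH. They had 0 Mmp12 UMIs in control and 177 and 198.5 CPM in NASH, and the pooled NASH level was at least 7.05-fold above the control floor. In the NASH libraries 253 of 268 and 262 of 266 of these UMIs were in cluster 15 and 15 and 4 in cluster 18. By C1q content, 241 and 259 were in the 68 and 83 cells with 10 or more C1q UMIs. Mmp14 in monocyte-like cells was at 54.2 and 62.0 CPM in NASH, and it split in the same direction, at 77.5 and 80.8 CPM in cluster 15 against 11.3 and 5.93 in cluster 18. For Mmp14 the same 68 and 83 cells with 10 or more C1q UMIs held 46 of 82 and 67 of 83 UMIs. They also held 677077 of 1513341 and 825355 of 1339801 UMIs of all genes in the class.

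**Figure D5:**
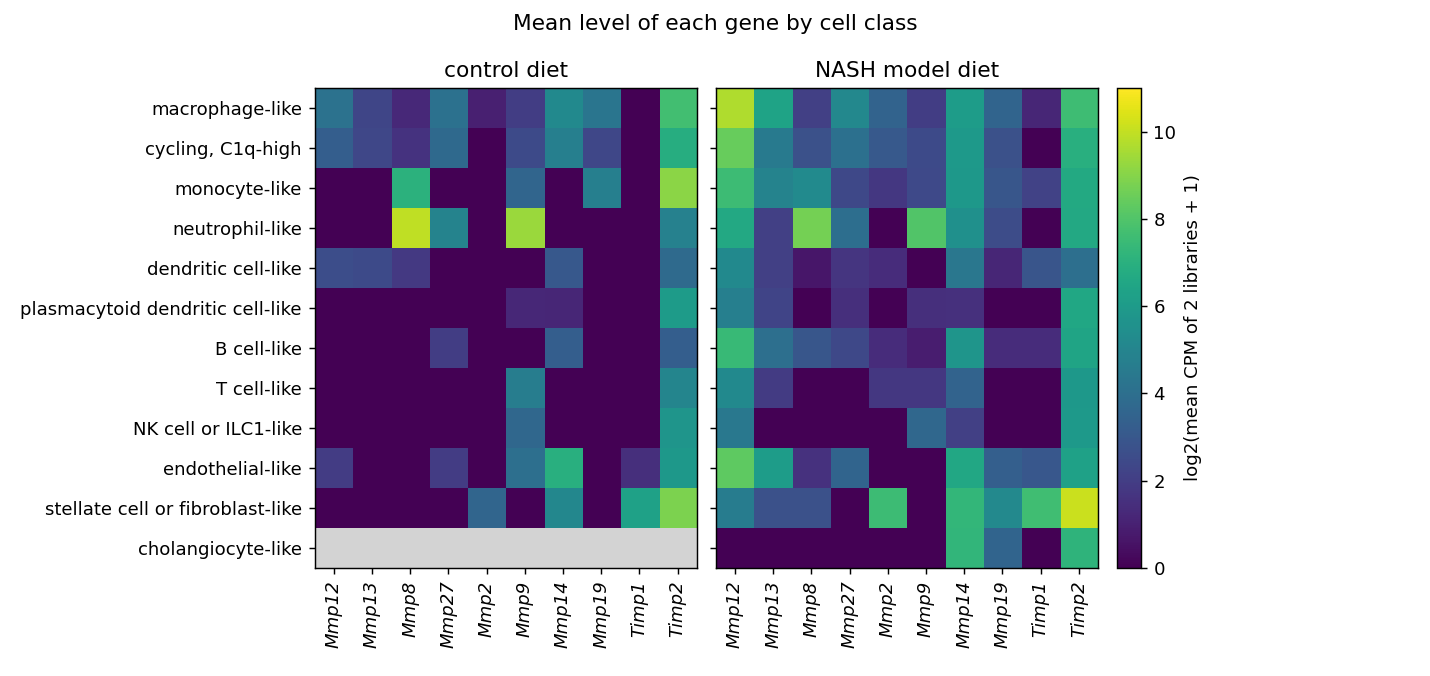
Mean level of the 10 genes by cell class in control (left) and NASH (right), as log2 of the mean CPM of 2 libraries plus 1, and grey where no cell was found. Control means of small classes rest on few cells (8 and 13 monocyte-like, 5 and 10 neutrophil-like, 3 and 5 stellate cell or fibroblast-like). By the mean of the NASH libraries, Mmp12 and Mmp13 were highest in macrophage-like cells (in NASH 1 alone, Mmp13 was higher in endothelial-like cells, at 135 against 70.6 CPM), Mmp8 and Mmp9 in neutrophil-like cells, and Mmp2, Timp1 and Timp2 in stellate cell or fibroblast-like cells.

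Stellate cell or fibroblast-like cells, though only 3, 5, 12 and 8 in number after a sort for CD45, had Timp2 at 326, 577, 1206 and 1031 CPM. Mmp14 was at 0, 66.6, 111 and 195 CPM there. In endothelial-like cells (45, 107, 33 and 15 cells) Mmp14 was at 135, 106, 92.4 and 101 CPM and was not called (log2 -0.21, SE 0.34, edgeR adjusted p = 0.765). In plasmacytoid dendritic cell-like cells Mmp12 was found in 0%, 0%, 4.00% and 5.88% of cells after thinning.

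The difference between the diet effect in macrophage-like cells and that in another class was tested with the library as a block. It was called for 2 of the 10 genes. No member was called against cycling C1q-high, other cycling, dendritic cell-like, plasmacytoid dendritic cell-like or T cell-like cells, where 0.354%, 1.75%, 5.42%, 8.42% and 0.905% of all genes were called. For Timp2 the effect in macrophage-like cells was lower than that in B cell-like cells by a log2 difference of -2.85 (SE 0.66, edgeR adjusted p = 5.89e-04, background 7.22% of 9458 genes), and the C1q values above go with it. It was -1.29 with all deposited barcodes (adjusted p = 0.0783) and -0.65 with finer clusters (0.934). For Mmp14 it was higher than in endothelial-like cells by 1.55 (SE 0.43, edgeR adjusted p = 0.0189, background 2.67% of 10042 genes). It was called in only 6 of 14 alternatives. The call was lost without control 1 (0.66, adjusted p = 0.709), NASH 1 (0.192) or NASH 2 (0.611), with library totals alone (0.0782), all deposited barcodes (0.202) or the stricter cell filter (0.0595), and with coarser clusters (0.278) or the Mmp and Timp genes left in the clustering (0.289). For Mmp12 the macrophage-like and cycling C1q-high effects differed by 0.44 (SE 0.76, edgeR adjusted p = 0.953).

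Across 47 class and library sums with at least 10 cells, which share libraries and differ in depth, the genes whose log2(CPM + 1) was most like that of each member were listed, leaving out genes with Gm or Rik names and mitochondrial, ribosomal, immunoglobulin and T cell receptor genes. Mmp12 was most like Trem2 (r = 0.828), H2-M2 (0.816), Gdf3 (0.815), Cxcl14 (0.782) and its neighbour Mmp13 (0.775). Of the genes listed for Mmp13, Pparg (0.761) followed Mmp12. Mmp27 was most like Pigz (0.817) and Scamp5 (0.796), and then C1qb (0.787) and C1qa (0.785). Mmp9 went with Slfn4 (0.859) and Retnlg (0.822), and Mmp8 with Cd177 (0.824) and Chil3 (0.785), of which Retnlg and Cd177 are known from neutrophils. Timp1 went with the matrix genes Mgp (0.833) and Col6a3 (0.830), and Mmp2 with Ms4a4d (0.770), Pdgfrl (0.770), Tcf21 (0.760) and Des (0.756). Of the stellate cell or fibroblast-like sums, only that of NASH 1, with 12 cells, was large enough to enter. In it 1 cell held 16 of the 32 Timp1 UMIs, and the weight of this single sum in these values was not tested. Mmp14 was most like Ifit3 (0.780), Mmp19 like Ccl2 (0.746) and Timp2 like Tmem50a (0.801).

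Other genes of the system were described from lists. Of 17 other Mmp and Timp genes only Timp3, an inhibitor held in the matrix, entered the macrophage-like test, at 2.97, 7.31, 2.42 and 1.75 CPM (log2 -0.90, edgeR adjusted p = 0.150). Timp3 was high in endothelial-like cells, at 1020, 1070, 447 and 496 CPM, and in stellate cell or fibroblast-like cells, at 0, 288, 1180 and 474 CPM. Mmp7, known from bile duct epithelium, had 0, 0, 22 and 14 UMIs in kept cells, of which 17 and 13 were in the 6 and 12 cholangiocyte-like cells, a class with no control cell. Mmp23 had 19 and 12 of its 46 and 27 NASH UMIs in dendritic cell-like cells and 18 and 12 in stellate cell or fibroblast-like cells.

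Of 31 genes for activation, inhibition and clearance of MMPs, 19 entered the macrophage-like test, 9 of which were called higher and 3 lower, with a median log2 fold change of 0.50, against 23.0% higher, 20.8% lower and a median of -0.02 over all genes. Among the higher ones were receptor and binding genes of plasminogen activation, which also activates MMP precursors. Plaur, the urokinase receptor, was at 12.8, 9.87, 33.5 and 36.4 CPM (log2 1.99, edgeR adjusted p = 6.02e-05). The activator Plau was not called (log2 0.84, edgeR adjusted p = 0.0738), and Plat and the plasminogen gene Plg did not enter the test. Anxa2 and S100a10, which together bind plasminogen at the cell surface, had log2 fold changes of 2.94 and 1.43, and the plasminogen receptor Plgrkt one of 0.99. Bsg (log2 0.50), Thbs1 (1.33) and Sdc1 (1.68) were called higher as well. Bsg was at 261, 271, 280 and 300 CPM, and its fold is close in size to the shift of 0.39 between scalings. Cd63, which binds Timp1, was at 9.81, 24.1, 940 and 773 CPM (log2 6.06). Cd44, a surface anchor for Mmp9 and Mmp14, was lower at 1099, 1312, 335 and 410 CPM (log2 -1.32), as were Itgb1 (-0.45) and the protease inhibitor Pzp (-2.76). Lrp1, the receptor that clears several MMPs, was at 393, 362, 299 and 303 CPM and not called (log2 0.05), and Furin, which activates Mmp14, was not called (0.07).

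Of 17 ADAM and ADAMTS genes, relatives of the MMPs, 7 entered the test and 2 were called higher and 2 lower (43.8% of all genes were called), with a median of -0.44. Adam8, a membrane protease of myeloid cells, was at 0.297, 0.366, 21.4 and 17.3 CPM (log2 6.13, edgeR adjusted p = 1.63e-05). Adam15 was higher (0.93), and Adam9 (-0.49) and Adam10 (-0.44) were lower. With library totals alone the shift of 0.39 is downward, which makes falls larger and rises smaller. Of 24 matrix proteins cut by MMPs, 6 entered the test, with Spp1 (log2 7.81) and Sparc (0.96) called higher and Vtn (-1.91) lower, and a median of -0.03, beside the same 43.8% over all genes. Of 16 genes in and beside the chromosome 9 cluster, which include 4 of the members, 8 entered the test: the 4 members were higher, Birc2 (-1.08), Birc3 (-1.30) and Tmem123 (-0.98) were lower, and Dcun1d5 (0.21) was not called. The list's median was 0.84, against -0.02 over all genes, of which 43.8% were called. That median includes the 4 members, whose folds are given above, so it does not describe their neighbours.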

How the data were processed

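The deposited files hold raw UMI counts per gene and cell barcode for 4 libraries. Cell Ranger, Seurat and the mouse build mm10 are named in the submitters' processing notes, whose versions, like the method of cell calling and the use of strand, were not stated in the sources used here. Barcodes with fewer than 200 genes or over 10% mitochondrial UMIs were left out, as were predicted doublets, at 0.8% per 1000 cells. Cells were clustered on 2000 variable genes without Mmp and Timp genes (scanpy 1.11.5, 30 principal components, 15 neighbours, Leiden resolution 1), and clusters with mixed markers stayed unnamed. UMIs were summed per class and library and tested with edgeR 4.0.16 (TMM scaling, quasi-likelihood F test, low genes filtered, Benjamini-Hochberg adjustment over all genes) in R 4.3.3. Differences of diet effects between classes had library as a block. A class was tested where every library had 10 cells. On simulated data, 95.8% of 191 genes changed by a log2 of 2 were recovered in the macrophage-like comparison, and 8.5% of the calls were false. Shares were compared after thinning to 1000 UMIs, and intervals and floors (3 counts) cover counting error only. The alternatives were other scalings, no filter, DESeq2 1.42.0, other cell filters, doublet rates and clusterings, a replicate block and leaving out each library. The genes and lists were chosen with earlier results of these data known. Genes named beside the 10 were the called genes of each list with examples, apart from 1 that is not reported here, and the 5 genes most like each member once Gm-numbered, Rik, mitochondrial, ribosomal, immunoglobulin and T cell receptor genes were set aside. Genes were located with GENCODE vM21, in which 98.74% of the gene IDs were found.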

Additional observations from a re-analysis of the deposited data

Results flagged for a closer look

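The diet effect on Timp2 differed between macrophage-like and B cell-like cells, by a log2 difference of -2.85 (edgeR, library as a block, background 7.22% of 9458 genes). In NASH 1 and NASH 2, 32 of 35 and 28 of 32 B cell-like Timp2 UMIs were in cells with 10 or more C1q UMIs. The diet effect on Mmp14 differed between macrophage-like and endothelial-like cells, by 1.55 (background 2.67% of 10042 genes). Both are differences tested directly, and neither held under every alternative.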

How the results depend on the processing

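In macrophage-like cells Mmp12, Mmp13, Mmp2 and Mmp27 were called under all 16 alternatives, and Mmp8 under 10, while Timp1 was called with no filter only. In the other tested classes 3 calls were made, against 9 with no filter, 7 at Leiden resolution 0.5 and 1 at resolution 2. The background moved as well. In B cell-like cells edgeR called 225 genes higher and 155 lower of 2586. With no filter it called 293 and 107 of 12361, and at resolution 2 it called 8 and 32 of 1631. In T cell-like cells 5 and 9 of 1716 genes were called, and 145 and 82 of 5583 at resolution 0.5. For differences between classes the 2 calls became 1 with library totals alone and 0 with all deposited barcodes. They became 1 with at least 500 genes and at most 5% mitochondrial UMIs, 4 at Leiden resolution 0.5 and 1 at resolution 2. With the Mmp and Timp genes left in the clustering 1 was called. Against B cell-like cells 319 genes were called higher and 364 lower of 9458, and 269 and 122 of 9507 with all deposited barcodes. Against endothelial-like cells these were 161 and 107 of 10042, and 302 and 254 of 10286. Over the libraries left out, the log2 fold change of Mmp19 ranged from -0.98 (without NASH 2) to 0.021 (without NASH 1). Signs turned for Mmp9 (log2 -0.13) and Mmp19 (0.086) under the stricter cell filter, for Mmp19 without NASH 1 and for Timp2 with library totals (-0.062). None of these turned values was called. The cause was not tested. Library totals alone were added after seeing the data. The labels do not say that a replicate number is shared between diets, so the numbers are not taken as pairs. The deviations of control 1 and NASH 1 had a correlation of -0.0314. With 2 libraries per diet this is a single value and cannot decide whether the numbers are pairs. With a replicate block 5 members were called in macrophage-like cells, 6 in all kept cells (Mmp14 added) and 4 in other classes. Over all genes that block gave 2225 higher and 1992 lower of 10224 in macrophage-like cells. It gave 1771 and 1529 of 12124 in all kept cells and 287 and 230 of 2586 in B cell-like cells. Each diet had 2 libraries, and a lone library left in a diet is assumed to vary as the others do. Timp1 and Mmp8 in macrophage-like cells are limited by depth.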

Other observations

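Barcodes left out by the filters were 15.7% and 21.3% of the control and 4.09% and 3.83% of the NASH libraries. They held a large share of the control Mmp12 signal of 1 library: control 2 had 126 Mmp12 UMIs over all deposited barcodes and 56 in kept cells, while control 1 had 61 and 52, NASH 1 had 6783 and 6553 and NASH 2 had 7509 and 7409.

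In the few control monocyte-like cells of cluster 15 (5 and 4 cells), Timp2 was at 1480 and 410 CPM, on 42 and 7 UMIs, against 106 and 127 CPM in NASH. In control 1, all but 1 of the 43 monocyte-like Timp2 UMIs were in the 4 cells with 10 or more C1q UMIs.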
